A study of Homo sapiens with 15 samples.

Results

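Keratinocyte differentiation genes encode the proteins with which stratified epithelia, such as the epidermis, build a tough outer layer. As a keratinocyte leaves the basal layer it exchanges its keratins, lays down precursor proteins beneath its membrane, and crosslinks them with transglutaminases into the cornified envelope. Kallikreins, which are secreted serine proteases, later cut the contacts between dead cells. Secreted and cytosolic protease inhibitors belong to the same program, and its S100 proteins act in calcium binding and antimicrobial defence. Mammary epithelial cells in culture are known to express a number of these genes at low levels. A set of 32 such genes was taken here from a list of symbols that was drawn up with earlier results of these data known; the rule itself uses no measured value, and all 32 were found among the 60721 gene identifiers of the count table. By role the set holds 6 suprabasal and stress keratins, 9 cornified envelope precursors, 2 plakins, 2 transglutaminases, 6 kallikreins, 3 protease inhibitors, and 4 genes of the S100 and lipocalin group.

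The levels were measured by poly(A) RNA sequencing of MCF-10A, an immortal line from human breast epithelium that does not form tumours, in 15 libraries of 5 genotypes with 3 biological replicates each. The unedited genotypes were parental cells and cells carrying an empty vector. The 3 edited genotypes had NF1, a negative regulator of RAS signalling, targeted by guide RNA 1 (NF1-g1), by guide RNA 2 (NF1-g2), or by both guides (NF1-g1/g2). All 15 libraries came from untreated cells in the same mammary medium, a phenol red-free base with horse serum, EGF, hydrocortisone, cholera toxin and insulin. The labels do not say whether an edited line is a clone or a pool, nor whether replicates were separate cultures of one line, so p-values measure the spread between these libraries. Each genotype is a single line as far as the labels tell, so the edit and the history of the line cannot be told apart. In bulk RNA, fewer cells expressing a gene and less of its RNA per cell cannot be told apart either.

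Library totals ranged from 46129559 to 78976917 counts, and 3 counts corresponded to between 0.038 and 0.065 CPM, a gene's counts scaled to a common library total. NF1 itself lay between 115 and 159 CPM in the 6 unedited libraries and between 26.0 and 51.3 CPM in the 9 edited ones, with no overlap. Replicate 2 of guide 2 stood apart from its group: KRT14, a basal keratin, was at 1147 CPM there against 18.9 and 17.4 CPM in the other guide 2 libraries, and EPCAM, an epithelial adhesion protein, was at 103 CPM against 2.62 and 2.67 CPM. Its NF1 level of 31.4 CPM lay among those of the edited libraries. Results are therefore given with all 15 libraries and again without that library, a choice made after seeing the data. It stood apart in epithelial genes, and many members were high in it too, so the choice is not independent of them. All genotypes share the same fit and its estimate of spread. Leaving that library out can therefore change adjusted p-values even in comparisons that do not contain guide 2. Of the 32 genes, 26 passed the filter on low counts and were tested; KRT1, TGM3, LCN2, KLK6, KLK8 and KLK11 did not. Several of the 26 passed through the libraries in which they were high, so counts over the tested genes are descriptions.

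**Figure D1:**
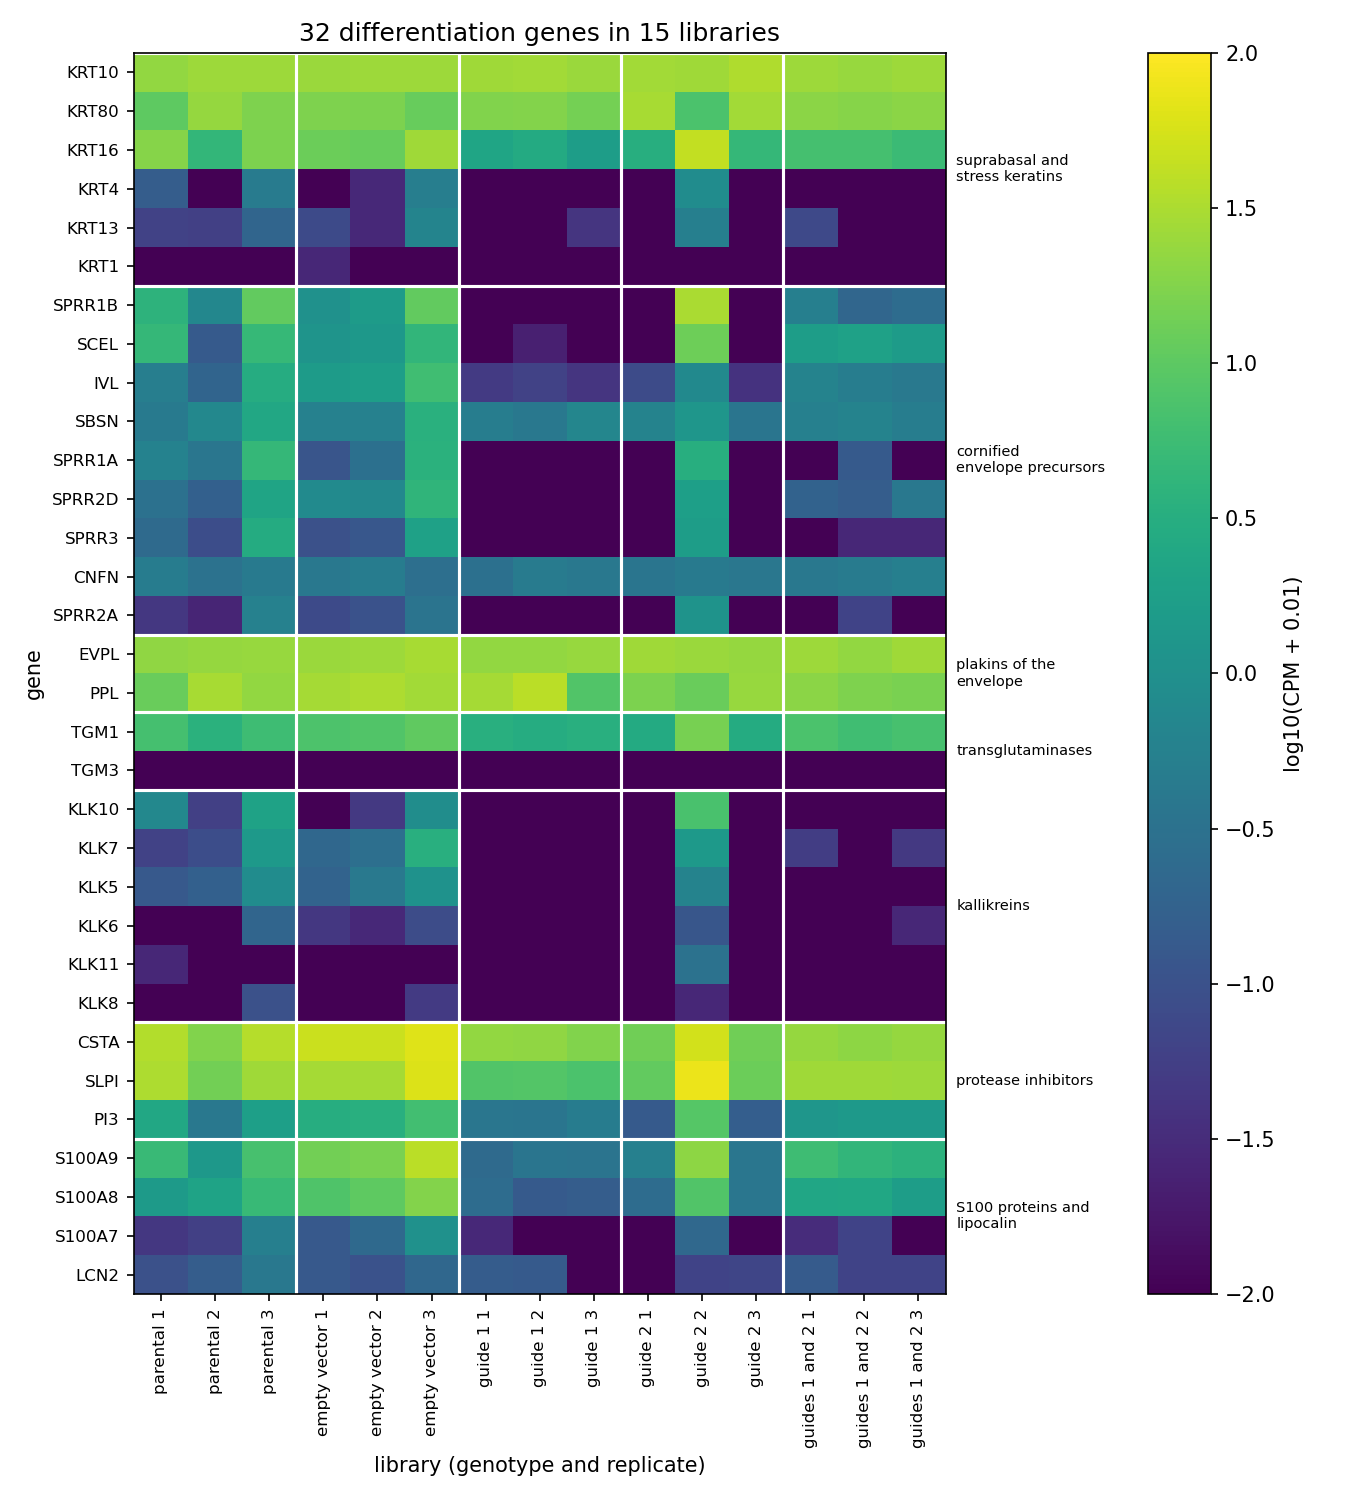
Level of each of the 32 differentiation genes (rows, grouped by role) in each of the 15 libraries (columns, by genotype and replicate), coloured by log10 of CPM plus 0.01. The SPRR genes and kallikreins are dark across the guide 1 libraries and guide 2 replicates 1 and 3. They are brighter in guide 2 replicate 2, KLK6, KLK8 and KLK11 less so, while KRT10 and EVPL change little in colour.

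The label of the set was held against its own defining genes. The epidermal members KRT1 and TGM3 were at or near 0. KRT1, a keratin of the first suprabasal layers of skin, had 1 count in 1 of 15 libraries, and TGM3, a late transglutaminase, had none. Filaggrin (FLG), the granular layer protein, reached at most 0.112 CPM. Per kilobase of exon, the highest mean levels over the 15 libraries were those of SLPI at 44.3, CSTA at 22.2, S100A9 at 13.6, KRT10 at 12.3 and SPRR1B at 6.63 CPM per kilobase.

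Cornified envelope precursors differed widely between libraries. Their summed level was 11.0, 2.68 and 31.8 CPM in the parental libraries and 5.78, 6.88 and 34.8 CPM in those with the empty vector. It was 0.804, 0.912 and 1.09 CPM with guide 1, and 1.01, 55.0 and 0.752 CPM with guide 2. With both guides it was 3.92, 4.03 and 3.65 CPM. Guide 1 libraries and guide 2 replicates 1 and 3 were thus the lowest 5 of the 15, and guide 2 replicate 2 was the highest. What remained in those 5 was mainly SBSN, a secreted suprabasal protein, and CNFN, an envelope protein that lay between 0.280 and 0.518 CPM in all 15 libraries.

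Involucrin (IVL), the scaffold on which the envelope is assembled, was measured at 0.509, 0.188 and 2.99 CPM in parental cells and at 1.56, 1.71 and 5.86 CPM with the empty vector. It was at 0.0383, 0.0506 and 0.0316 CPM with guide 1, at 0.0723, 0.779 and 0.0289 CPM with guide 2, and at 0.607, 0.481 and 0.411 CPM with both guides. All guide 1 libraries lay below every unedited library, at about the level of 3 counts, and the libraries with both guides lay below all empty vector libraries but among the parental ones. Against the empty vector, IVL was lower with guide 1 by a log2 fold change of -6.16 ± 1.32 (SE, n = 3 each), with a Benjamini-Hochberg adjusted p of 0.0188 in edgeR's quasi-likelihood test. It was also lower in the mean of the 3 edited genotypes against the mean of both unedited ones, by -3.39 ± 0.69 (edgeR adjusted p = 0.0322, and 0.103 with a replicate block). The difference of guide 2 from the empty vector was -3.43 ± 1.06 with all libraries (edgeR adjusted p = 0.0947) and -5.94 ± 1.24 (adjusted p = 0.00657) without guide 2 replicate 2.

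SPRR1B, a small proline-rich protein crosslinked into the envelope, had the highest mean level per kilobase of the precursors. It was at 3.91, 0.705 and 11.0 CPM in parental cells and at 1.03, 1.53 and 11.0 CPM with the empty vector. No count of it was found in the 3 guide 1 libraries or in guide 2 replicates 1 and 3, whereas guide 2 replicate 2 had 31.5 CPM, the highest of the 15. The libraries with both guides had 0.520, 0.196 and 0.250 CPM, below every unedited library. Against a floor of 3 counts over the 3 guide 1 libraries, 730 counts with the empty vector make SPRR1B at least 287-fold lower with guide 1, and 777 counts in parental cells make it at least 301-fold lower. Replicate 3 held most of those counts in both control groups, and without it a choice made after seeing the data, the bounds were 82.6-fold and 144-fold. The edgeR adjusted p for guide 1 against the empty vector was 0.133 with all libraries and 0.0078 without guide 2 replicate 2.

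The other small proline-rich genes were likewise missing with guide 1: no count was found for SPRR1A, SPRR2A, SPRR2D and SPRR3, which puts them at least 84.5, 10.6, 120 and 44.8-fold below the empty vector in that order. Without empty vector replicate 3, where they were highest, the bounds were 12.8, 5.24, 50.6 and 6.40-fold. SCEL (sciellin), a precursor that binds the envelope from within, was at most 4.72 CPM in unedited cells, had 1 count in the 3 guide 1 libraries together, and reached 13.3 CPM in guide 2 replicate 2. Its ratio of empty vector to guide 1 was 437 with a 95% counting interval from 78.0 to 17314, which covers counting error only, and 244 without empty vector replicate 3. SCEL lay at 1.57 to 1.96 CPM in the libraries with both guides, within the range of 1.16 to 4.31 CPM of the empty vector. SPRR2A and SPRR2D, and SPRR1A and SPRR1B, are close copies, and their shares of common reads are uncertain.

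**Figure D2:**
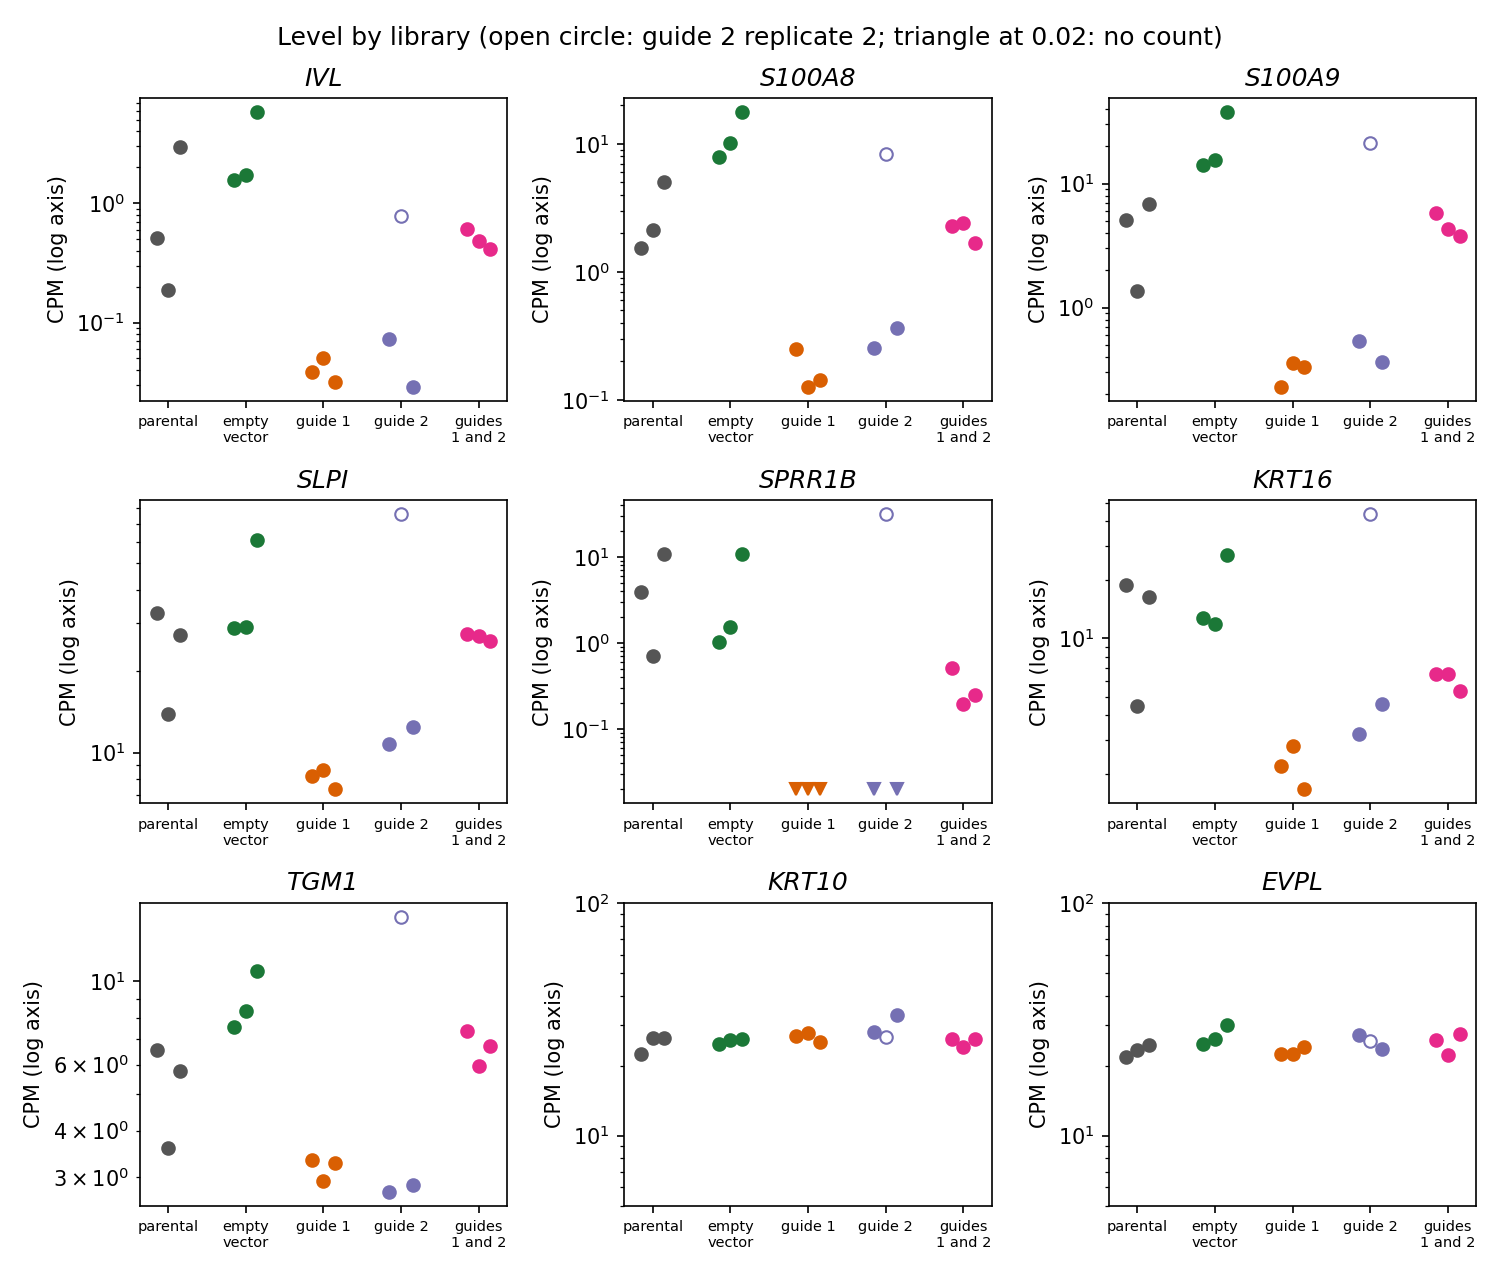
Level of 9 members in each library, in CPM on a log axis, with 1 point per library by genotype; the open circle is guide 2 replicate 2 and triangles mark libraries with no count. IVL, S100A8, S100A9, SLPI and SPRR1B are lowest with guide 1 and in the filled guide 2 points, while KRT10 and EVPL stay between 21.9 and 32.9 CPM.

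The upstream sequences of 4 precursors are shown as examples. All 4 genes were lowest, or at 0, with guide 1 and in guide 2 replicates 1 and 3. Each holds upstream the recognition heptamer of AP-1, the FOS and JUN dimer known to drive involucrin and SPRR genes in keratinocytes. SPRR1A and SPRR2A met both conditions as well and are not shown. SBSN holds the heptamer too, but its level in those libraries overlapped that in unedited ones. Each run is the 250 bases before the RefSeq transcription start on GRCh38.p14, written 5′ to 3′ on the plus strand, on which all 4 genes lie, with TGANTCA in capitals. The windows are chr1:152908296-152908545 for IVL, chr1:153030953-153031202 for SPRR1B, chr1:153001499-153001748 for SPRR3 and chr13:77535456-77535705 for SCEL.
IVL: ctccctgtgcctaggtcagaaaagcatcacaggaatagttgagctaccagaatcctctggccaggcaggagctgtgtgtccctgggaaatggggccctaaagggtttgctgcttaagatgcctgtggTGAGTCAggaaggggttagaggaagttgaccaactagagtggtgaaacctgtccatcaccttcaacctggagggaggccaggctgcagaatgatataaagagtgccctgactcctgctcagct
SPRR1B: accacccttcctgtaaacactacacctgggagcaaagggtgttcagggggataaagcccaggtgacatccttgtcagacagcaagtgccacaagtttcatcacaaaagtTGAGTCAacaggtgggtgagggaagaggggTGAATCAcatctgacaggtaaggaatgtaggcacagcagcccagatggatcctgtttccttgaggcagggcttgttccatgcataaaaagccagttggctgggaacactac
SPRR3: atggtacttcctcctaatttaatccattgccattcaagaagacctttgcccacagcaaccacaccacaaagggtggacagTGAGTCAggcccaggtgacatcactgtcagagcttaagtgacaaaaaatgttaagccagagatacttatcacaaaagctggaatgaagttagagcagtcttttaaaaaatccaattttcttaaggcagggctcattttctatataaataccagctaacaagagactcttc
SCEL: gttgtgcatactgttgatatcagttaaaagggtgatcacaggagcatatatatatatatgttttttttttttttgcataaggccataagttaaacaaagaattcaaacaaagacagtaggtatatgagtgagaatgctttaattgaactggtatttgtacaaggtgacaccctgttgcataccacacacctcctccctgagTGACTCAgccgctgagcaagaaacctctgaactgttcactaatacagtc
The heptamer starts 123 bases before the start in IVL, 141 and 111 bases in SPRR1B, 170 bases in SPRR3 and 49 bases in SCEL. RefSeq windows were matched for 20 of the 32 members. Of these genes 8 (IVL, LCN2, SBSN, SCEL, SPRR1A, SPRR1B, SPRR2A and SPRR3) held TGANTCA, with any middle base, in at least 1 window. Among all 27305 genes with a window of that length, 8.06% held TGANTCA. The LCN2 match and the second SPRR1B match read TGAATCA, and the other member matches read TGAGTCA or TGACTCA. The heptamer was searched on both strands and its reverse complement has the same form; TATAAA, searched likewise, was found in 9 of the 20 members and in 13.0% of all genes. These matches describe letters in a window only.

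The keratins of the set did not move as 1 group. KRT10, a suprabasal keratin, was at 22.5, 26.3 and 26.3 CPM in parental cells, at 24.8, 25.7 and 26.0 CPM with the empty vector, and at 26.7, 27.6 and 25.3 CPM with guide 1. Guide 2 gave 27.8, 26.6 and 32.9 CPM and both guides gave 25.9, 24.0 and 26.1 CPM. All guide 2 libraries lay above every unedited library and every library with both guides by a small margin, and the other groups overlapped. The log2 difference from the empty vector was 0.18 ± 0.09 for guide 2 (edgeR adjusted p = 0.342) and 0.05 ± 0.09 for guide 1 (adjusted p = 0.829). KRT10 overlaps an antisense gene, KRT10-AS1, and the use of strand in counting is not given in the sources used here.

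KRT16, a stress keratin induced in wounds and hyperproliferation, ranged from 4.46 to 18.8 CPM in parental cells, from 11.9 to 27.0 CPM with the empty vector and from 1.66 to 2.77 CPM with guide 1. Guide 2 replicate 2 held its highest level at 43.6 CPM, against 3.20 and 4.58 CPM in the other guide 2 libraries. Guide 1 lay below both unedited groups throughout; its log2 difference from the empty vector was -2.97 ± 0.86 (edgeR adjusted p = 0.0603), and -2.97 ± 0.47 (adjusted p = 9.8e-04) without guide 2 replicate 2. KRT80, a keratin of differentiating epithelia, went the other way within guide 2, with 7.30 CPM in replicate 2, the lowest of the 15 libraries, and 30.4 and 27.5 CPM in replicates 1 and 3. KRT4 and KRT13, the mucosal pair, stayed at or below 0.870 CPM, and KRT4 had no count with guide 1 or with both guides, at least 11.0 and 8.95-fold below the empty vector. That bound rests on empty vector replicate 3, which held 27 of the 28 counts; replicate 1 had none, so the groups overlapped at 0. KRT16 shares long stretches with KRT14 and KRT17, so its counts carry that uncertainty.

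The plakins, which tie the envelope to keratin filaments, did not follow the precursors. Envoplakin (EVPL) was at 21.9, 23.2 and 24.6 CPM in parental cells, 24.8, 25.9 and 29.9 CPM with the empty vector, and 22.4, 22.5 and 24.0 CPM with guide 1. It was at 27.0, 25.4 and 23.5 CPM with guide 2 and at 25.8, 22.2 and 27.2 CPM with both guides. Guide 1 lay just below the empty vector, with a log2 difference of -0.24 ± 0.10 (edgeR adjusted p = 0.2), and the groups with guide 2 and with both guides overlapped the empty vector. Periplakin (PPL) ranged from 8.09 to 38.9 CPM in the guide 1 libraries alone, which spans its level in all other libraries. It was at 28.1 to 32.5 CPM with the empty vector, above all guide 2 libraries at 12.3 to 24.5 CPM and all libraries with both guides at 15.4 to 20.1 CPM. Those log2 differences were -0.76 ± 0.45 and -0.79 ± 0.45 (edgeR adjusted p = 0.4 and 0.485).

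Transglutaminase 1 (TGM1), the membrane-bound crosslinking enzyme, was at 6.58, 3.60 and 5.78 CPM in parental cells and 7.55, 8.32 and 10.7 CPM with the empty vector. It was at 3.33, 2.94 and 3.28 CPM with guide 1 and at 2.75, 14.9 and 2.86 CPM with guide 2. With both guides it was at 7.37, 5.94 and 6.74 CPM. Guide 1 lay below every unedited library and below every library with both guides. The latter lay below the empty vector and overlapped the parental libraries. The log2 difference of TGM1 between guide 1 and the empty vector was -1.49 ± 0.51 (edgeR adjusted p = 0.109). Without guide 2 replicate 2, which is in neither group, it was -1.50 ± 0.20 (adjusted p = 3.3e-04). The SE thus changed while the difference hardly did.

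The kallikreins were scarce even in unedited cells and had no count at all in 6 of the 9 edited libraries. KLK10 had the highest mean CPM of the 6, a value not scaled by length. It was at 0.719, 0.047 and 2.01 CPM in parental cells and at 0, 0.0369 and 0.895 CPM with the empty vector. It was at 6.996 CPM in guide 2 replicate 2 and had no count in the other 8 edited libraries, so the empty vector and edited groups overlapped at 0. KLK5 and KLK7, the proteases best known for shedding of the outer skin layer, had no count with guide 1 and were at least 35.4 and 80.1-fold below the empty vector, or 18.6 and 15.7-fold without empty vector replicate 3. With both guides KLK5 again had no count, at least 28.8-fold below or 15.1-fold without that replicate, and KLK7 had at most 0.0434 CPM. KLK6, KLK8 and KLK11 never exceeded 0.308 CPM, a level KLK11 reached in guide 2 replicate 2.

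Protease inhibitors were detected in all 15 libraries. Cystatin A (CSTA), a cytosolic inhibitor crosslinked into the envelope, was at 35.0, 17.2 and 35.4 CPM in parental cells and 47.2, 48.2 and 63.5 CPM with the empty vector. It was at 22.1, 21.9 and 17.7 CPM with guide 1, at 13.4, 54.0 and 13.7 CPM with guide 2, and at 23.6, 20.6 and 23.6 CPM with both guides. Every guide 1 library and every library with both guides lay below every empty vector library, while parental replicate 2 lay below all libraries with both guides. The log2 difference of guide 1 from the empty vector was -1.38 ± 0.45 (edgeR adjusted p = 0.0913); without guide 2 replicate 2 it was -1.39 ± 0.22 (adjusted p = 0.00101), and that of both guides was -1.25 ± 0.45 with all libraries (adjusted p = 0.21) and -1.26 ± 0.22 without that one (adjusted p = 0.00589).

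SLPI, a secreted inhibitor of leukocyte elastase, was at 32.7, 13.8 and 27.1 CPM in parental cells and at 28.8, 29.2 and 60.9 CPM with the empty vector. It was at 8.23, 8.64 and 7.33 CPM with guide 1, at 10.8, 75.8 and 12.4 CPM with guide 2, and at 27.4, 27.0 and 25.9 CPM with both guides. Guide 1 lay below all other libraries, and the libraries with both guides lay just under those with the empty vector. The guide 1 difference from the empty vector was -2.31 ± 0.63 on the log2 scale (edgeR adjusted p = 0.049), and with replicate number as a block, since equal numbers of these groups deviated together, its adjusted p was 0.0903. PI3 (elafin), an inhibitor of the same family that is crosslinked into the envelope, ranged from 3.10 to 6.16 CPM with the empty vector. It was at 2.49, 0.392 and 1.80 CPM in parental cells and from 0.355 to 0.475 CPM with guide 1. Parental replicate 2 thus lay within the guide 1 range. PI3 was at 0.126 and 0.145 CPM in guide 2 replicates 1 and 3 and at 8.84 CPM, its highest level, in guide 2 replicate 2.

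S100A8 and S100A9, which pair as the antimicrobial complex calprotectin, differed between the unedited groups as well as between unedited and edited ones. S100A8 was at 1.53, 2.12 and 5.02 CPM in parental cells, 7.91, 10.1 and 17.8 CPM with the empty vector, 0.249, 0.127 and 0.142 CPM with guide 1, 0.253, 8.34 and 0.361 CPM with guide 2, and 2.30, 2.41 and 1.68 CPM with both guides. S100A9 was at 5.12, 1.36 and 6.84 CPM in parental cells, 14.0, 15.5 and 37.9 CPM with the empty vector, 0.230, 0.355 and 0.332 CPM with guide 1, 0.542, 21.1 and 0.361 CPM with guide 2, and 5.81, 4.33 and 3.75 CPM with both guides. For both genes all empty vector libraries lay above all parental libraries, the libraries with both guides overlapped the parental ones, and guide 1 lay below both.

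Against the empty vector, S100A8 was lower with guide 1 by a log2 fold change of -6.15 ± 1.20 (edgeR adjusted p = 0.0135) and S100A9 by -6.19 ± 1.38 (adjusted p = 0.0221). The guide 2 differences were -2.04 and -1.66 with all libraries (edgeR adjusted p = 0.266 and 0.445), and -5.29 ± 0.58 and -5.68 ± 0.71 without guide 2 replicate 2 (adjusted p = 1.6e-04 and 3.9e-04). Those of parental cells were -2.09 and -2.39 with all libraries (edgeR adjusted p = 0.242 and 0.257), and -2.11 and -2.40 without guide 2 replicate 2 (adjusted p = 0.00419 and 0.00623). Both are also neutrophil genes, and a leukocyte list of 13 markers was read beside them. TYROBP, AIF1 and CD3E had no count in any library, and PTPRC, LYZ, CSF3R, CEACAM8 and ELANE were at most 0.0766 CPM. From 2 to 5 of the 13 had at least 3 counts in a library. Their summed level, mostly CD14, was 3.66 to 4.23 CPM in parental cells, 8.32 to 9.61 CPM with the empty vector, 3.61 to 6.57 CPM with guide 1, 4.38 to 5.85 CPM with guide 2 and 6.92 to 7.07 CPM with both guides. MPO, a granulocyte peroxidase, was at 2.05 to 3.38 CPM with the empty vector and at most 0.339 CPM elsewhere, and its part in these results was not tested. S100A7 (psoriasin) stayed at or below 1.04 CPM and LCN2, an iron-sequestering lipocalin, at or below 0.390 CPM.

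Of the 7 pairwise comparisons, guide 1 against the empty vector gave the most members called lower. With all libraries edgeR called 4 of the 26 tested members lower (IVL, S100A8, S100A9 and SLPI) and none higher, where 4.57% of 17457 tested genes were called lower. Unadjusted p-values were under 0.05 for 18 members, all lower, as for 12.7% of tested genes in that direction, and DESeq2 called 13 members and 11.1% of genes. Leaving out guide 1 replicate 1 or replicate 2 left no member called, and leaving out guide 1 replicate 3 or empty vector replicate 3 left only 1. Without guide 2 replicate 2, 15 of 27 tested members were called lower, where 11.7% of 17849 tested genes were. That library is in neither group. The median log2 difference of tested members was -6.00 without it and -6.07 with all libraries. The added calls thus went with smaller SEs rather than larger differences. The libraries of guide 1 all lay below those of the empty vector in 19 of 32 members and in 18.1% of tested genes.

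Guide 2 against the empty vector depended on replicate 2. With all libraries edgeR called no member (3.94% of tested genes were), unadjusted p-values were under 0.05 for 2 members (18.9% of tested genes), and DESeq2 called 1 (7.88% of genes). Only 3 of 32 members (IVL, LCN2 and PPL) had all guide 2 libraries below all empty vector libraries, as did 10.9% of tested genes. Without replicate 2, 13 members were called lower (background 9.42%) and KRT80 higher (background 5.04%), with a log2 difference of 0.93 ± 0.25 (edgeR adjusted p = 0.0238) that was 0.54 ± 0.41 with all libraries (adjusted p = 0.515). That test rests on 2 guide 2 libraries. In replicate 2, PI3 was 65.3 times, S100A9 46.7 times, S100A8 27.1 times, IVL 15.4 times and KRT16 11.2 times the mean of the other guide 2 libraries, and 10 of the 32 members (31.3%) had their highest level of all 15 libraries there, as did 26.1% of tested genes.

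With both guides edgeR called no member against the empty vector with all libraries, where 0.962% of tested genes were called; unadjusted p-values were under 0.05 for 6 members (14% of tested genes) and DESeq2 called 1 (4.33% of genes). All libraries with both guides lay below all empty vector libraries in 17 of 32 members, against 17.2% of tested genes. Without guide 2 replicate 2, CSTA, KLK5, PI3, S100A8 and S100A9 were called lower, where 4.99% of tested genes were. Guide 1 lay below both guides in all libraries for 11 members and for 15.3% of tested genes. No member had the opposite order, which 13.5% of tested genes had. IVL, SPRR1B, TGM1, SLPI, PI3, S100A8 and S100A9 were among the genes for which both guides lay between guide 1 and the empty vector.

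The unedited genotypes differed from each other too. With all libraries edgeR called no member between parental cells and the empty vector (4.37% of tested genes were called), with unadjusted p-values under 0.05 for 2 members (19.8% of tested genes) and no DESeq2 call (9.39% of genes). Without guide 2 replicate 2, CSTA, PI3, S100A8, S100A9 and TGM1 were called lower in parental cells, where 8.68% of tested genes were. All parental libraries lay below all empty vector libraries in 6 of 32 members and in 14.1% of tested genes.

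Parental cells as the reference gave fewer calls. Against them edgeR called no member for guide 1 (0.149% of tested genes were), for guide 2 (0.0516%) or for both guides (0.195%) with all libraries. Unadjusted p-values were under 0.05 for 13, 1 and 3 members (19.9%, 7.37% and 9.98% of tested genes), and DESeq2 called 7, 0 and 1 (4.09%, 0.841% and 2.11% of genes). All guide 1 libraries nevertheless lay below all parental libraries in 17 of 32 members, against 12.8% of tested genes. Without guide 2 replicate 2, guide 1 had 12 members called lower (background 7.47%), guide 2 had 7 (3.05%), namely CSTA, PI3, S100A8, S100A9, SCEL, SPRR1B and TGM1, and both guides had none (2.62%), with unadjusted p-values under 0.05 for 6 members (17.8%). Parental and empty vector references share the edited libraries, so these counts are not independent.

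For the mean of the 3 edited genotypes against the mean of the unedited ones, IVL alone was called lower with all libraries, where 1.19% of tested genes were, and no member was called with the replicate block (IVL adjusted p = 0.103). Without guide 2 replicate 2, 20 of 27 tested members were called lower, where 11.4% of tested genes were. The 7 that were not called were KRT10, KRT80, CNFN, SBSN, EVPL, PPL and LCN2.

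**Figure D3:**
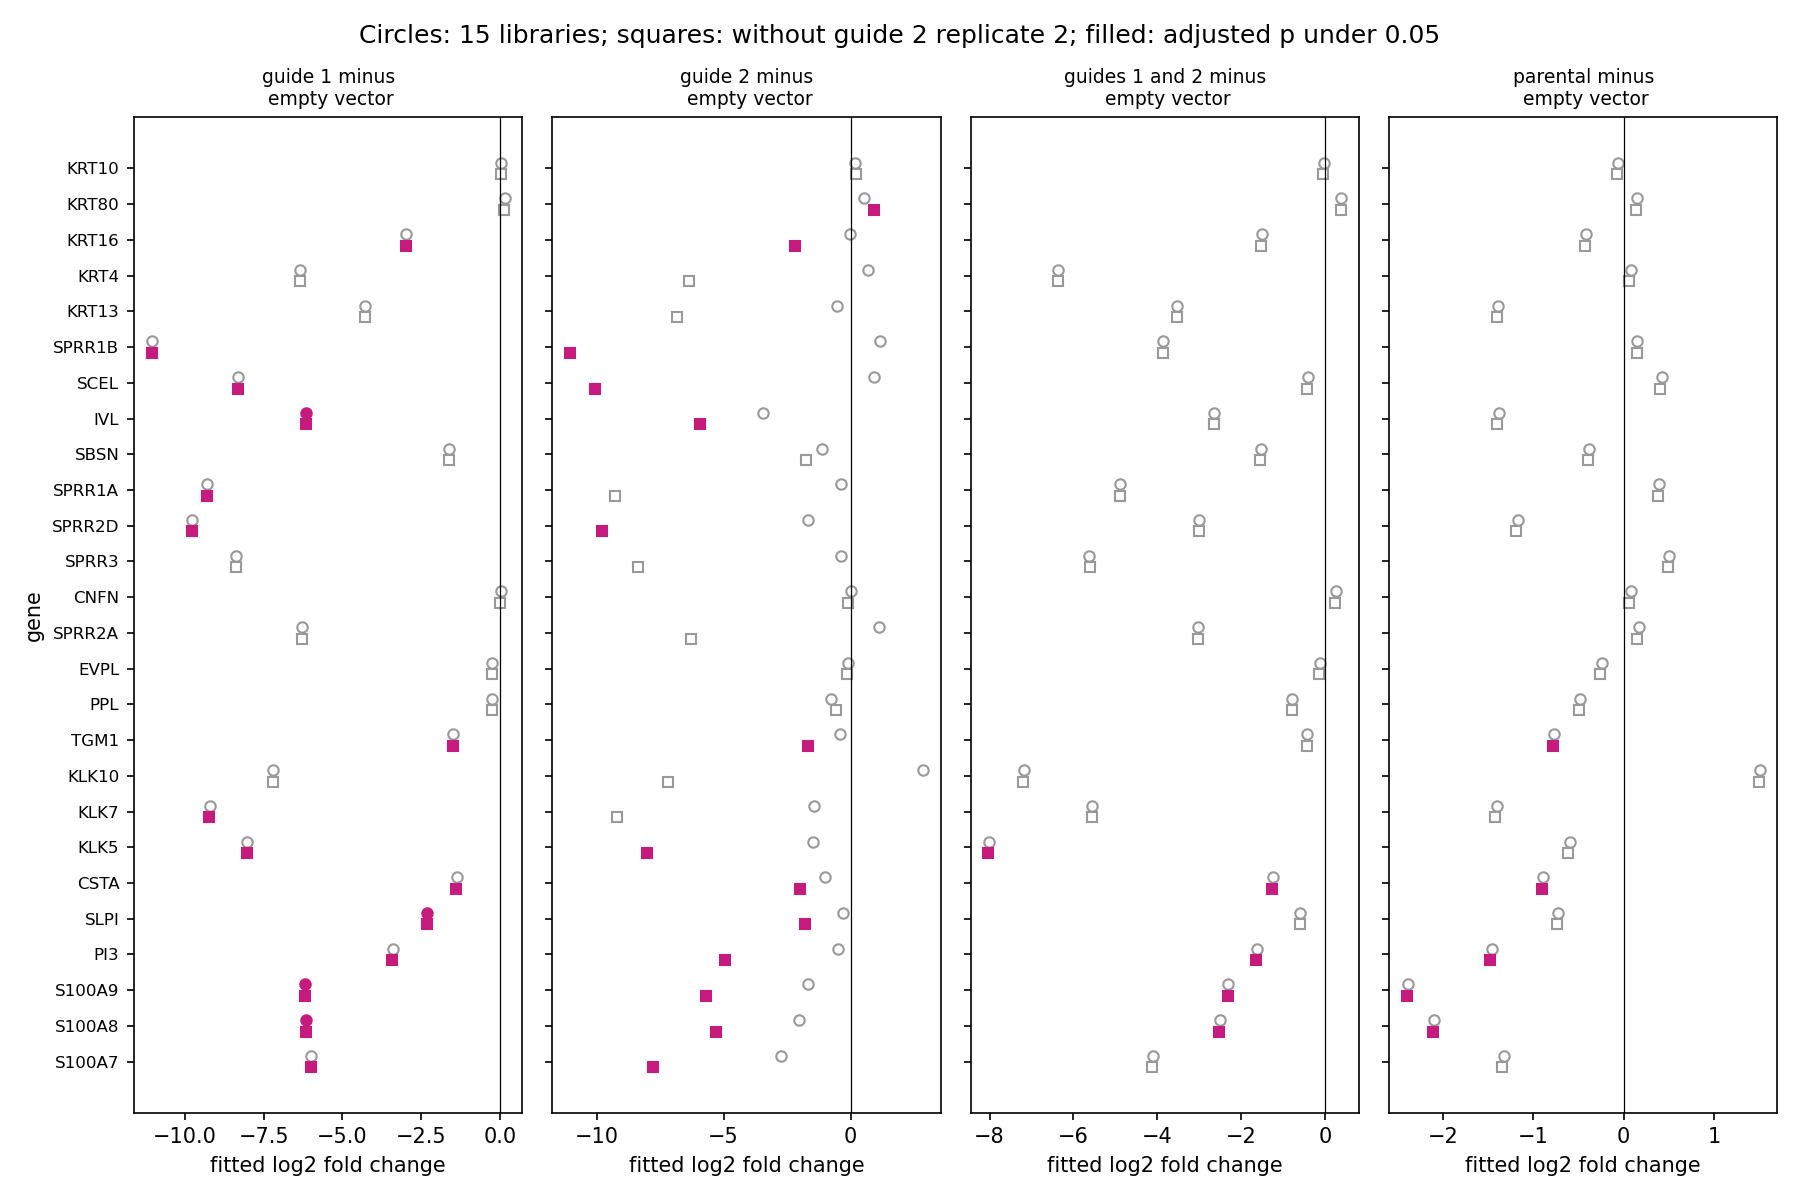
Fitted log2 fold change of each tested member in 4 comparisons with the empty vector, for all 15 libraries (circles) and without guide 2 replicate 2 (squares), filled where the edgeR adjusted p was under 0.05. Values of genes with no count in a group depend on the offset added in the fit; the guide 2 panel is the one in which circles and squares part.

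Libraries of 1 genotype differed as well. Among the empty vector libraries, replicate 3 held the highest level in 26 of 32 members, as it did in 37.0% of tested genes. Among parental libraries, replicate 3 was highest in 21 members (24.7% of tested genes) and replicate 2 lowest in 17 (36.4%). The number of members with at least 3 counts was 25, 25 and 29 in parental cells, 25, 24 and 28 with the empty vector, 14, 15 and 13 with guide 1, 14, 29 and 14 with guide 2, and 19, 21 and 18 with both guides. The share of the variance of log2 CPM that lay between genotypes had a median of 47.1% over tested members and 39.8% over all tested genes, and without guide 2 replicate 2 it was 70.4% and 53.8%.

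Regulators of the program were read in the same libraries. TP63, the transcription factor that maintains stratified and basal epithelium, was at 37.4, 0.815 and 19.9 CPM in parental cells, 43.1, 41.4 and 68.0 CPM with the empty vector, 0.153, 0.203 and 0.142 CPM with guide 1, 0.0542, 75.8 and 0.0723 CPM with guide 2, and 11.0, 9.97 and 7.83 CPM with both guides. TP63 was thus lowest where most members were lowest, in the guide 1 libraries and guide 2 replicates 1 and 3, and parental replicate 2, low in many members, was also its lowest unedited library. The guide 1 difference of TP63 from the empty vector was -8.23 ± 2.26 on the log2 scale (edgeR adjusted p = 0.0506), and without guide 2 replicate 2 the adjusted p was 3.3e-04. KLF4, a barrier regulator, was lowest in guide 2 replicate 2, at 6.58 CPM against 12.8 to 27.6 CPM in the other 14 libraries. The part of these regulators in the members' levels was not tested.

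**Figure D4:**
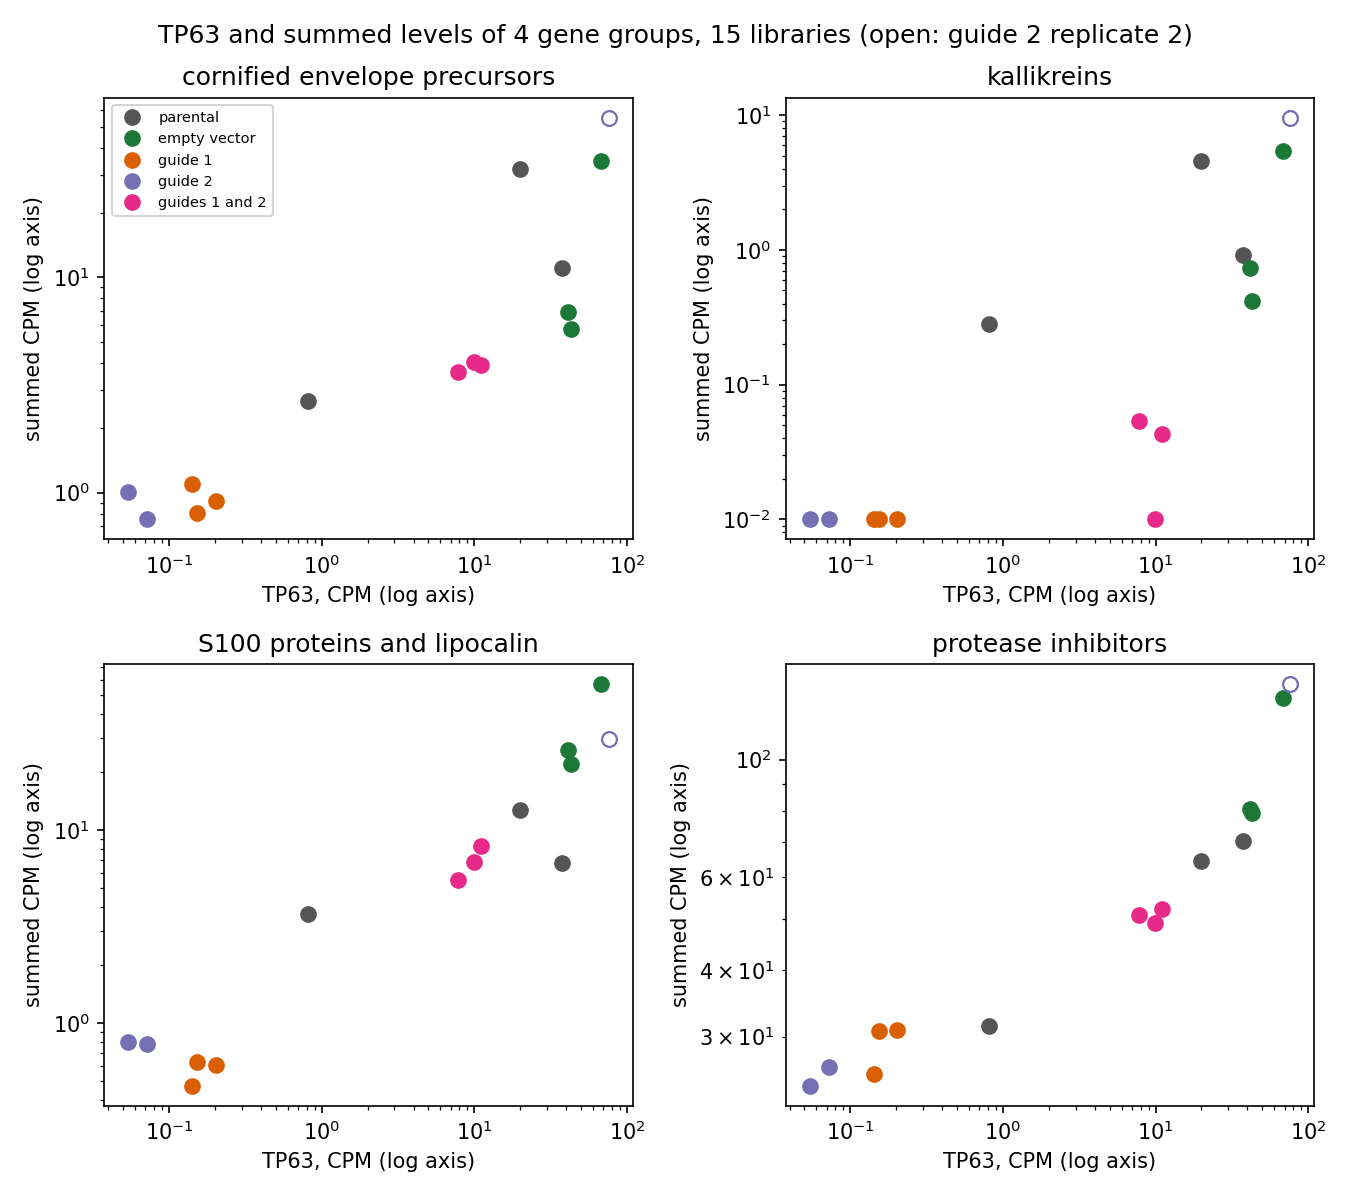
Summed CPM of 4 member groups (vertical, log axis) against TP63 in CPM (horizontal, log axis), with 1 point per library coloured by genotype; the open point is guide 2 replicate 2, and kallikrein sums of 0 are drawn at 0.01. The guide 1 points and the filled guide 2 points lie at the lower left in all 4 panels, and the open point lies with the highest empty vector library at the upper right.

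Of all 17457 tested genes, 4.57% were called lower with guide 1 against the empty vector, the share to hold beside the lists below. Of 28 listed regulators 22 were tested. With guide 1 against the empty vector, the regulators CEBPA, GRHL1 and VDR were called lower by log2 fold changes of -0.94, -2.12 and -0.99 (edgeR adjusted p between 0.0262 and 0.0459); with the replicate block their adjusted p-values were 0.0798 for CEBPA, 0.0656 for GRHL1 and 0.0592 for VDR. Of 60 further cornification genes 26 were tested, and CLCA2, GJB2, KRT75 and SPINK5 were called lower, by -4.91, -1.57, -4.32 and -2.24 (edgeR adjusted p between 0.0162 and 0.046), and the block gave 0.0682 for CLCA2 and 0.0729 for SPINK5. With all libraries, KRT75 was also called lower with guide 2 and in parental cells against the empty vector. With guide 1 against parental cells no gene of this list was called. SPINK5 encodes LEKTI, the inhibitor of the skin kallikreins, and GJB2 encodes the gap junction protein connexin 26. Of 11 basal epithelial markers, 6 were called lower with guide 1 and none higher, among them CDH3, COL17A1, KRT15, KRT17 and LAMB3, of which CDH3, COL17A1 and KRT17 were not called with the block (adjusted p = 0.0727, 0.088 and 0.0655). With all libraries, LAMB3 was also called lower with guide 2 and in parental cells against the empty vector. With guide 1 against parental cells no basal marker was called. The summed level of the 11 markers was 2489 to 3264 CPM with guide 1 and 4485 to 5038 CPM with both guides. It was 7270 to 13195 CPM with the empty vector and 2911 to 7605 CPM in parental cells. Parental replicate 2, at 2911 CPM, lay within the guide 1 range. Guide 2 replicate 2 had 12332 CPM of them, while its mesenchymal marker sum of 3793 CPM was below the range of 8471 to 20869 CPM of the other 14 libraries. The part of these markers in the members' levels was not tested.

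By position, 9 members lie in the epidermal differentiation complex, taken here as chr1:151982915-153632039 on GRCh38 from S100A10 to S100A1, which holds 91 annotated genes. Of its 25 tested genes, 7 were called lower with guide 1 against the empty vector and none higher, where 4.57% of all tested genes were called lower, namely IVL, S100A8 and S100A9 among the members and S100A2, S100A3, S100A14 and S100A16 outside them. With all libraries, S100A16 was also called lower in parental cells against the empty vector, as was S100A11 (2.84% of all tested genes were). With guide 1 against parental cells no gene of the complex was called. All 6 kallikreins lie in the cluster on chr19:50819148-51084245, which holds 25 annotated genes of which 4 were tested. Outside these clusters, SLPI (chr20:45252239-45254564) and PI3 (chr20:45174876-45176544) lie close together on chromosome 20, and KRT10 (chr17:40818117-40822595), KRT13 (chr17:41500981-41505705) and KRT16 (chr17:41609778-41615899) lie in the type I keratin region of chromosome 17, and differed in pattern as described above.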

How the data were processed

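RNA levels were measured in 15 libraries of 5 genotypes, grouped from each library's own label. The authors deposited whole-number read counts per gene and a table of CPM; the deposited CPM equal counts divided by the library total to within 4.91e-11. The submitters' processing notes name Trim Galore 0.6.0, STAR 2.7.8a and GRCh38; the counting program, annotation and use of strand are not given in the sources used here. Gene positions and exon lengths come from GENCODE release 29 on GRCh38, and upstream sequences from RefSeq on GRCh38.p14.

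Counts were tested with edgeR 4.0.16 (R 4.3.3): filterByExpr by genotype, TMM scaling, 1 quasi-likelihood fit of genotype means over 15 libraries, and Benjamini-Hochberg adjustment over 17457 genes, with calls at an adjusted p under 0.05. SE is the log2 fold change over the square root of F. DESeq2 1.42.0, another scaling (RLE), no filter, a replicate block, fits of the compared groups only and leaving out each library were alternatives. Folds against a group with no count use a floor of 3 counts over the group. Intervals and floors cover counting error only. The test was run on simulated data with changes set only in more abundant genes and with no deviating library. That run does not cover members at low counts or groups with no count. The members, lists and comparisons were chosen with earlier results of these data known. Values in every library are given for members called in any of the 8 comparisons with all libraries and for the most abundant member of each role; other members are given by range, and of the other lists called genes are named, some of which are not reported here.

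Equal replicate numbers were checked for pairing by the correlation of deviations from genotype means over tested genes: guide 1 and the empty vector gave 0.136 to 0.28, each over 0.1, and over all 30 same-number pairs the mean was -0.05.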

Additional observations from a re-analysis of the deposited data

How the results depend on the processing

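Members called for guide 1 against the empty vector numbered 4 with all libraries, 9 without the filter, 11 with only the compared groups, 13 with DESeq2, and 0 to 15 leaving out 1 library each. The lowest of these, 0, came without guide 1 replicate 1 or replicate 2, and the highest without guide 2 replicate 2. Leaving out 1 library each gave 0 to 14 members for guide 2 and 0 to 5 for both guides against the empty vector, 0 to 5 for parental cells, 0 to 12 and 0 to 7 for guides 1 and 2 against parental cells, 0 to 0 for both guides against parental cells, and 0 to 20 for the edited mean, for which the highest count also came without guide 2 replicate 2.

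DESeq2 called 1 member for guide 2 and 1 for both guides against the empty vector, 7 for guide 1 and 1 for both guides against parental cells, and 8 for the edited mean. Only the compared groups in the fit gave 10 for both guides and 1 for parental cells against the empty vector, and 1 for guide 1 against parental cells. Without the filter the edited mean had 4. Leaving out guide 2 replicate 2 together with empty vector replicate 3, chosen after seeing the data, gave 11, 9, 2 and 2 members for guide 1, guide 2, both guides and parental cells against the empty vector, 15, 12 and 1 for the edited groups in the same order against parental cells, and 16 for the edited mean. The cause of these differences was not tested.

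With the replicate block, guide 1 against the empty vector had 3 members called (SLPI lost, adjusted p = 0.0903) and the edited mean had 0 (IVL, adjusted p = 0.103); it changed no other count of members. RLE scaling changed no count of members. Under 21 alternatives S100A8 kept a log2 fold change between -6.48 and -5.73 for guide 1 against the empty vector, with edgeR or DESeq2 adjusted p from 4.8e-07 to 0.0758. For the same comparison the highest edgeR or DESeq2 adjusted p was 0.0880 for IVL, 0.101 for S100A9 and 0.209 for SLPI. For IVL in the edited mean it was 0.134. No member's direction turned among the 5 called results. Members under 3 counts in a library, most kallikreins among them, cannot be ranked at this depth.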
